A study of Homo sapiens with 16 samples.

Results

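The genes described here are 10 spliced noncoding RNAs known as hosts of small nucleolar RNAs (snoRNAs): SNHG1, SNHG3, SNHG5, SNHG6, SNHG7, SNHG8, SNHG12, SNHG15, SNHG16 and GAS5. They were taken by name from a fixed list after the Ensembl identifiers of the count files were matched to gene symbols, and all 10 were found among the 57500 genes counted. The study measured RNA by sequencing in 16 libraries of NCI-H929, an established line of human myeloma cells, with 4 libraries in each of 4 groups. The first pair of groups was cells given DMSO, the solvent, and cells treated for 6 h with p300 degrader 27 (3 nM), a compound named for removing the histone acetyltransferase p300. The second pair was cells labelled NTC and cells labelled p300 KO. The labels do not say how the knockout was made, whether it is 1 clone or a pool, or what NTC stands for. They give every library batch 1 and do not say whether replicates were separate cultures, so the tests weigh differences only against the spread among libraries, which may be technical.

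In a snoRNA host gene the product that is kept is often the intron: after splicing, the intron is trimmed to a box C/D snoRNA, which guides ribose methylation of ribosomal RNA, or a box H/ACA snoRNA, which guides pseudouridylation. The spliced exons of many such genes are exported, engaged by ribosomes and then removed by nonsense-mediated decay. Many hosts begin their transcripts with a run of pyrimidines, the feature of 5′ TOP messages that links translation of ribosomal protein mRNAs to growth signals. GAS5 (growth arrest specific 5) was named for its accumulation in arrested cells and is also known for binding the glucocorticoid receptor.

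Depth ran from 12590308 to 23120350 counts per library. Libraries degrader 2 and p300 KO 1 stood apart: mitochondrial genes took 64.9% and 47.7% of their counts, against 5.99% to 23.5% in the other 14, and left 4422984 and 8655416 other counts. The tests of the hosts are therefore given with all libraries and again without these. Marker values and the EP300 test in p300 KO are with all libraries unless stated otherwise. EP300, which encodes p300, had 46.0 ± 4.56 CPM (counts-per-million; mean ± SD, n = 4) in DMSO and 78.7 ± 48.4 with the degrader, or 54.5 ± 1.19 (n = 3) without degrader 2. A degrader acts on protein, so this transcript does not check its labels. EP300 had 87.4 ± 3.82 CPM in NTC and 35.4 ± 4.18 in p300 KO, a log2 fold change of -1.25 ± 0.11 (SE; edgeR quasi-likelihood test, Benjamini-Hochberg adjusted p = 2.2e-04). All 10 markers of plasma cells and myeloma were detected at 1 CPM or more on average, with a summed level of 3041 to 5358 CPM per library. Among markers of other cells, LUM (fibroblasts) and KRT19 (epithelium) were at 0 in every library, but other markers were detected. Per library, the 5 epithelial markers summed to 8.71 to 15.6 CPM and the 5 of NK cells to 56.5 to 76.2. The 6 B cell markers summed to 9.24 to 33.2 CPM. Sums were 1.04 to 10.6 CPM for 6 monocyte markers and 0.102 to 1.55 for 6 fibroblast markers. The 6 T cell markers summed to 40.2 to 44.8 CPM in DMSO and 13.7 to 27.5 with the degrader, where CD3E was at -0.98 ± 0.21 and TRAC at 0.56 ± 0.36 on the log2 scale (edgeR adjusted p = 0.0348 and 0.425). They summed to 41.3 to 46.1 CPM in NTC and 28.4 to 33.8 in p300 KO. There TRAC was at -1.13 ± 0.10 and CD3E, the other marker tested, at 0.04 ± 0.07 (edgeR adjusted p = 1.48e-04 and 0.68). With the degrader 4.76% of all genes were called. Of 10 plasma cell and myeloma markers, FGFR3 (1.18) was higher and IRF4 (-0.88) lower. None of 5 B cell markers tested was called. Without degrader 2, 4 of the 10 were higher and 2 lower, where 18.2% and 20.3% of all genes were. Of the B cell markers PAX5 (0.82) was then higher and BACH2 (-1.08) lower. In p300 KO 17% of all genes were called. There 3 of 5 B cell markers tested were lower, PAX5 (-1.19), MS4A1 (-1.12) and CD22 (-0.88). So were 5 of 10 plasma cell and myeloma markers, with IRF4 (-0.45), SLAMF7 (-0.34), TNFRSF17 (-0.60) and CD38 (-0.39) among them, and none was higher. Without p300 KO 1, 6 plasma cell and myeloma markers were lower and 3 higher, with SDC1 (0.51) and FGFR3 (0.50) among the higher. All 5 B cell markers tested were then lower, where 19.1% of all genes were higher and 21.8% lower. The part of these shifts in the results below was not tested. In such bulk libraries, fewer cells with a transcript and less of it per cell cannot be told apart.

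The starts of the transcripts are shown because the pyrimidine run is the feature these genes are known for. Of the 129 transcripts that GENCODE 29 lists for the 10 genes, 29 (22.5%) begin with 5 or more pyrimidines, against 4.47% of all 206694 transcripts. These 29 belong to 8 of the 10 genes. SNHG7 and SNHG15 have none. For each gene below, the first 30 bases are those of the transcript with the longest such run, 5′ to 3′, with the run in capitals.
SNHG1: TTTTTCTactgctcgtggatttacgcgcac
SNHG3: CCTTTTTggagacagattcgcagtggtcgc
SNHG5: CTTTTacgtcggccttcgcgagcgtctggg
SNHG7: CTCTgcgtgcgccggaggctgccgtggcgg
SNHG8: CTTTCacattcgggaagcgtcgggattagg
SNHG12: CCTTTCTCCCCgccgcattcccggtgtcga
SNHG15: TCCactgagttgacacgcagacgcagcctc
SNHG16: TTCTTTTCgaggtcggccgcgtggctggaa
GAS5: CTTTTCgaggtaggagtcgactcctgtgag
The run is 11 bases in SNHG12, 8 in SNHG16 and 7 in SNHG1, SNHG3 and SNHG6. These are annotated starts, and the counts do not show which transcripts were present.

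RefSeq promoter sequences (GRCh38.p14, 250 bases before to 50 after the start) matched 8 of the 10 genes. The letters TATAA lay between 45 and 15 bases before the start, on the gene's strand, in 4 of these 8 and in 4.42% of 27305 promoters. The 4 are shown because a TATA box is uncommon among promoters, with TATAA and the longest pyrimidine run near the start in capitals.
SNHG5, chr6:85678709-85678778, minus strand: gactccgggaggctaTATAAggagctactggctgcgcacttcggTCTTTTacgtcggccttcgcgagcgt
SNHG7, chr9:136728160-136728229, minus strand: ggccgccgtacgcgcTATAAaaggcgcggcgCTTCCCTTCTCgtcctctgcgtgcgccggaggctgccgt
SNHG8, chr4:118278717-118278786, plus strand: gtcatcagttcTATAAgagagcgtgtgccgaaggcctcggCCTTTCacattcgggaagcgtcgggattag
SNHG12, chr1:28581849-28581918, minus strand: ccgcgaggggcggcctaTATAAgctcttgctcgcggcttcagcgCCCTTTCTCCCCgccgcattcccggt
Each stretch runs from 45 bases before the RefSeq start to 25 bases after it. That start lies 0 to 53 bases from the start in the count files for SNHG5, SNHG7 and SNHG8 and 1110 bases from it for SNHG12. On both strands of the full window, CACGTG, the E-box letters, was in 1 of the 8 promoters (7.43% of all) and TGACG, the core of a cAMP response element, in 2 (25% of all).

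Inside 9 of the hosts, 25 snoRNA genes were matched in the count files. The same search matched none inside GAS5, although it is a host of box C/D snoRNAs, so its snoRNAs are missing from the 25. The reason was not tested. SNHG1 holds 7, SNHG12 holds 5, SNHG7 holds 4, SNHG16 holds 3 and SNHG3 holds 2, and the others hold 1 each. These are gene entries, and some overlap. SNORA17B in SNHG7 and SNORA16A in SNHG12 are each entered more than once, and an unnamed entry overlaps SNORA17A. The counts of entries therefore exceed those of distinct snoRNAs. Of the 25, 21 lie wholly within merged exons of their host, which include retained introns, and the same 21 had 0 counts in every library, while the other 4 had counts. How reads in both genes were assigned is not known, so these zeros give no level for the snoRNAs. SNORA73B in SNHG3 and SNORD99 in SNHG12 were the only snoRNA genes that passed 10 counts in any library, with 26 to 308 and 18 to 137 counts. SNORD1B in SNHG16 had at most 9 counts and SNORD30 in SNHG1 at most 7. SNORA73B and SNORD99 lie outside the merged exons of their host, and their sequences are shown because they had the most reads. Whether these came from the snoRNA or from unspliced host RNA was not tested. Capitals mark the ACA box of SNORA73B and the box D letters CTGA of SNORD99.
SNORA73B, chr1:28508559-28508762, plus strand: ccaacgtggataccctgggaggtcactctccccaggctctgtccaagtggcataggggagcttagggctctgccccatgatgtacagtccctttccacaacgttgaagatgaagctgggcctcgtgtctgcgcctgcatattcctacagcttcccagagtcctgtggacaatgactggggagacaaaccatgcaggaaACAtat
SNORD99, chr1:28578749-28578822, minus strand: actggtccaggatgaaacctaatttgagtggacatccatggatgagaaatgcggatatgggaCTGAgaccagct
The values below are those of the host genes, whose merged exons contain the 21 snoRNA entries. Reads in those stretches may be counted in the host values or left out of them, which was not tested.

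The host genes lie on 8 chromosomes of GRCh38. SNHG1 is at chr11:62851988-62855914, SNHG3 at chr1:28505980-28510892, SNHG5 at chr6:85660950-85678736, SNHG6 at chr8:66921684-66926398 and SNHG7 at chr9:136721366-136728184. SNHG8 is at chr4:118278709-118279823, SNHG12 at chr1:28578538-28582983, SNHG15 at chr7:44983023-44986961, SNHG16 at chr17:76557766-76565348 and GAS5 at chr1:173863900-173868882. SNHG3, SNHG8 and SNHG16 are on the plus strand and the others on the minus strand. Their merged exons cover 923 bases (SNHG8) to 5362 bases (SNHG16).

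Most hosts were among the more abundant transcripts by CPM, which is not corrected for length. GAS5 had the highest counts, 1148 ± 73.9 CPM in DMSO and 543 ± 21.4 CPM in NTC (SD, n = 4), above 99.4% and 98.9% of the genes tested. It made up 28.8% to 37.4% of the counts of the 10 genes, which together took 0.104% to 0.379% of a library. SNHG15 was the least abundant, at 47.9 ± 8.02 CPM in DMSO and 18.3 ± 0.914 CPM in NTC, at or above 80.6% and 62.4% of the genes tested. Per kilobase of merged exon, leaving out degrader 2 and p300 KO 1, the order was SNHG6, GAS5, SNHG5 and SNHG8 at the top and SNHG16 and SNHG15 at the bottom of all 4 groups. In DMSO these levels were 659 ± 93.9, 316 ± 20.4, 178 ± 20.9, 97.6 ± 6.47, 20.3 ± 1.52 and 13.1 ± 2.20 CPM per kb. SNHG1, SNHG3, SNHG7 and SNHG12 lay between and changed places. SNHG1 stood above SNHG3 in DMSO, at 77.2 ± 7 CPM per kb, and below both SNHG3 and SNHG7 in NTC, at 19.6 ± 0.742. Neighbours in the order overlapped between libraries only for SNHG12 and SNHG7 in DMSO and for SNHG7 and SNHG1 in NTC.

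**Figure D1:**
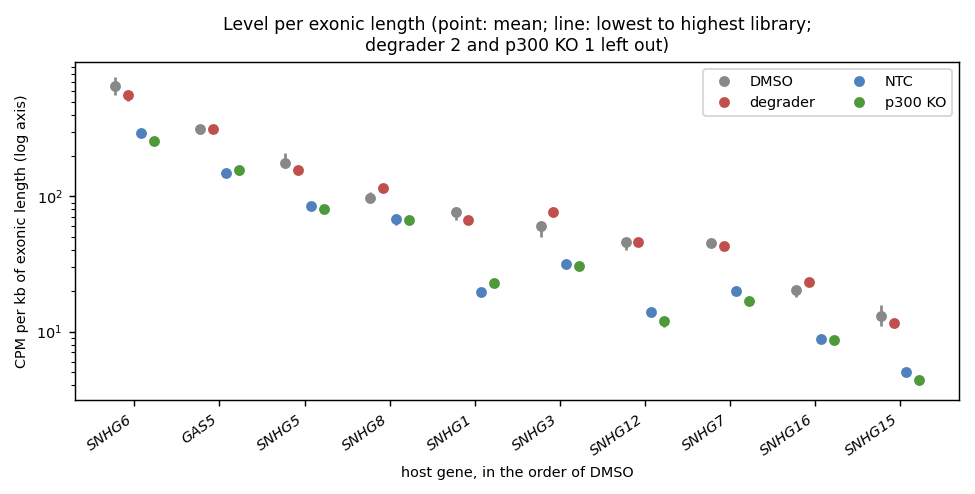
CPM per kb of merged exon (log axis) for each host gene, by group; points are means of 4 libraries (3 for degrader and p300 KO, without degrader 2 and p300 KO 1) and lines run from the lowest to the highest library. SNHG6 and GAS5 lead in every group, at 659 and 316 CPM per kb in DMSO, and every gene is lower in NTC and p300 KO than in DMSO and degrader.

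Both controls differed for every host. SNHG1, the host of SNORD22 and SNORD25 to SNORD28, had 315, 253, 298 and 293 CPM in the DMSO libraries and 72.4, 71.5, 77.7 and 72.7 in the NTC libraries, a ratio of 3.94. SNHG12 had 167, 136, 162 and 151 CPM in DMSO and 44.4, 47.8, 47 and 50.1 in NTC, a ratio of 3.25. GAS5 had 1225, 1056, 1124 and 1187 CPM in DMSO and 519, 539, 541 and 571 in NTC, a ratio of 2.12. The smallest ratio was 1.44, for SNHG8, the host of SNORA24. For all 10 genes every NTC library lay below every DMSO library, as did 28.9% of 18068 genes. The median log2 ratio of NTC over DMSO was -1.17 for the hosts and 0.01 over all genes, whose 5th and 95th percentiles were -1.45 and 1.89. The 10 genes were lower in every NTC library also when scaled by total counts (log2 ratios of -0.28 to -1.73) or by non-mitochondrial counts (-0.42 to -1.88). Other groups related to the hosts had medians of -0.57 for 77 cytosolic ribosomal proteins, -0.47 for 20 other noncoding snoRNA hosts, -0.66 for 11 box C/D snoRNP proteins and -0.10 for 14 nonsense-mediated decay factors. Markers of other cell types also shifted between the controls: the 6 monocyte markers summed to 1.14 to 1.68 CPM in DMSO and 6.95 to 10.6 CPM in NTC. Median log2 ratios were 3.59 for the 2 monocyte markers tested, 1.75 for 4 of NK cells, 1.54 for 2 of T cells, 1.45 for 3 of epithelium and 0.74 for 6 of B cells, and 0.06 for the 10 of plasma cells and myeloma. Their part in the host values was not tested. DMSO and NTC are each the control of another comparison, so no test was made.

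**Figure D2:**
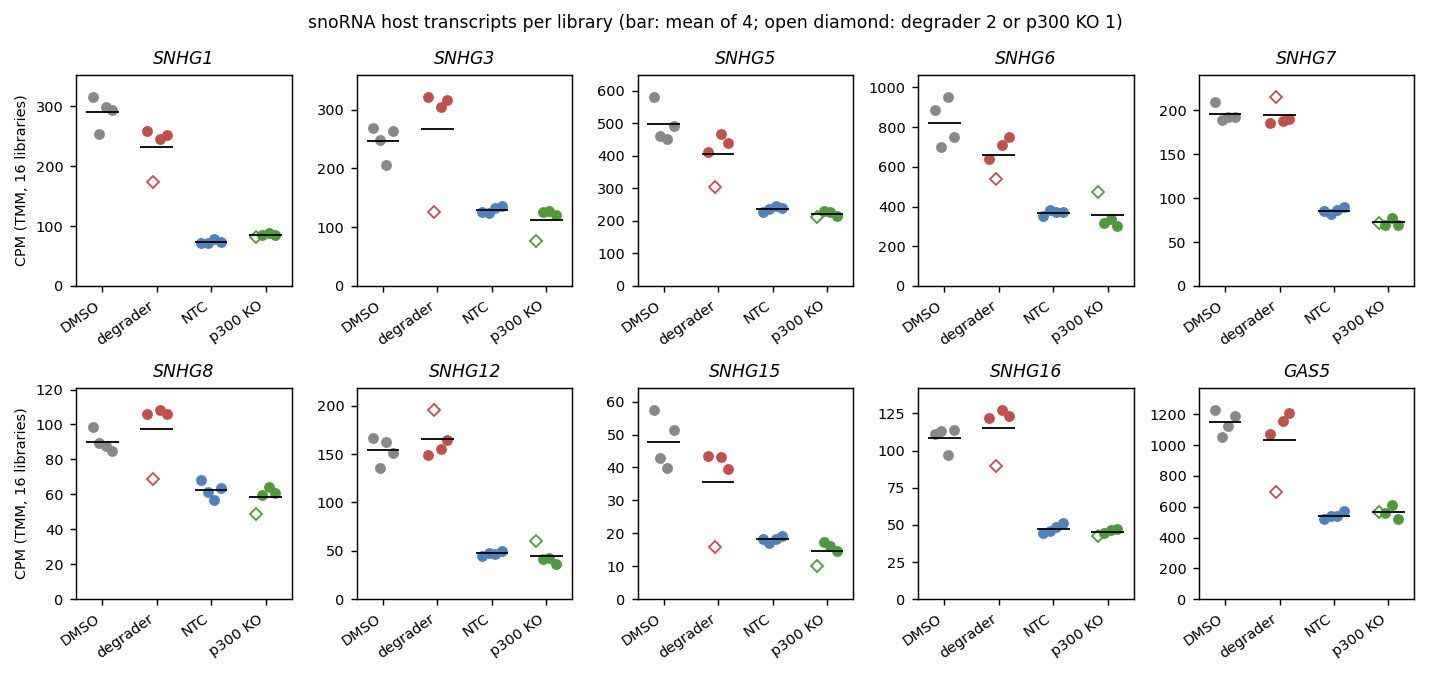
CPM (scaled by the trimmed mean of M values over 16 libraries) of each host gene in every library, with the mean of 4 as a bar; open diamonds are degrader 2 and p300 KO 1. The DMSO and degrader libraries lie above the NTC and p300 KO libraries for most genes, with degrader 2 low for SNHG3 (125 CPM) and SNHG15 (15.8 CPM).

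The mitochondria-rich libraries deviated gene by gene. Degrader 2 lay below its 3 group mates for 8 hosts and above them for SNHG7 and SNHG12. SNHG15 was lowest against its mates, at 15.8 CPM (85 counts) against 39.6 to 43.4, a log2 ratio of -1.42. SNHG3 was at 125 CPM against 305 to 321 (-1.33), and GAS5 at 699 CPM against 1070 to 1207 (-0.71). SNHG12 was at 195 CPM against 149 to 165 (0.32). Library p300 KO 1 was also low for SNHG3, at 76.7 CPM against 120 to 127 (-0.70), and for SNHG15, at 10.2 CPM against 14.7 to 17.3 (-0.66). It was high for SNHG6, at 475 CPM against 303 to 335, and for SNHG12, at 60.1 CPM against 36.5 to 42.3, both with a log2 ratio of 0.58. In both libraries 6 hosts lay below their mates, SNHG3, SNHG8 and SNHG15 by 0.34 or more on the log2 scale and SNHG1, SNHG5 and SNHG16 by less in p300 KO 1, and SNHG12 lay above.

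**Figure D3:**
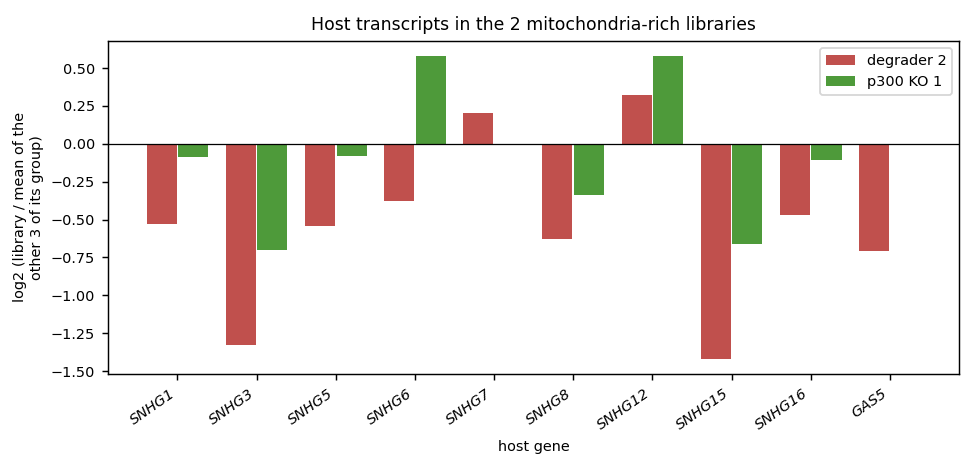
Log2 ratio of each mitochondria-rich library to the mean of the other 3 libraries of its group, for each host gene. SNHG3 and SNHG15 are low in both libraries, at -1.33 and -1.42 in degrader 2, while SNHG12 is high in both, at 0.32 and 0.58.

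The first comparison asks how the hosts responded to the degrader. With all 8 libraries none of the 10 passed the test, and none had an unadjusted p under 0.05 (edgeR). DESeq2 and limma-voom called 0 as well. Over all genes 4.76% were called, 755 of 15872, of which 34.4% were higher (11.6% of 164 when scaled by total counts). SNHG1 had 258, 174, 246 and 252 CPM with the degrader against 253 to 315 in DMSO, a log2 fold change of -0.31 ± 0.15 (SE; edgeR adjusted p = 0.291). SNHG6, which holds SNORD87, had 638, 539, 710 and 750 CPM against 698 to 951 (-0.31 ± 0.16, edgeR adjusted p = 0.322). SNHG15 had -0.41 ± 0.28, SNHG5 -0.28 ± 0.16 and GAS5 -0.14 ± 0.18. The other 5 lay between 0.01 and 0.12. The intervals were wide: the 95% interval of SNHG15 ran from -1.05 to 0.22 and that of GAS5 from -0.55 to 0.27.

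Without degrader 2, SNHG3 and SNHG8 were higher with the degrader, and no host was lower. Over all genes 38.5% were called, 18.2% higher and 20.3% lower, so 2 of 10 is below the share of all genes. SNHG3 had 321, 305 and 316 CPM against 269, 249, 205 and 264 in DMSO (log2 fold change 0.34 ± 0.10, edgeR adjusted p = 0.0141). SNHG8 had 106, 108 and 106 CPM against 98.5, 89.6, 87.6 and 84.6 (0.24 ± 0.08, edgeR adjusted p = 0.0352). The mean of SNHG3 moved from 267 ± 94.9 CPM with all 4 degrader libraries to 314 ± 8.5 without degrader 2, since that library alone lay under the DMSO range. SNHG1 (-0.21 ± 0.09) and SNHG6 (-0.24 ± 0.11) had unadjusted p under 0.05 but adjusted p of 0.0809 and 0.103 by edgeR. GAS5 stayed near 0, at -0.01 ± 0.09, with a 95% interval of -0.20 to 0.18.

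Which hosts were called changed when the mitochondrial share entered the fit. The share of mitochondrial counts was 13.4% to 23.5% in DMSO and 5.99% to 6.96% in the 3 other degrader libraries. With that share as a covariate and all 8 libraries, edgeR called SNHG1 (-0.30), SNHG5 (-0.27), SNHG6 (-0.30) and SNHG15 (-0.45) lower, and neither SNHG3 (0.10, adjusted p = 0.331) nor SNHG8 (0.13, adjusted p = 0.183). With the covariate and without degrader 2 none was called, and SNHG3 was at 0.05 (edgeR adjusted p = 0.904). In that fit the share separates the groups, so a lost call cannot tell the share from the treatment. SNHG8, without degrader 2, also lost its call when DMSO 4, degrader 1, degrader 3 or degrader 4 was left out in addition (edgeR adjusted p up to 0.117), while SNHG3 kept its call in all 7 such fits (0.00562 to 0.0459). SNHG3 shares 242 exonic bases with RCC1 on the same strand, and RCC1 had 0.10 ± 0.09 without degrader 2 (edgeR adjusted p = 0.358).

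The second comparison asks how the hosts differed between p300 KO and NTC. SNHG1 was the 1 host called with all 8 libraries, against 17% of all genes (2944 of 17350, of which 36.7% were higher, or 4.82% of 1265 when scaled by total counts). SNHG1 had 81.1, 85.7, 89.1 and 84.9 CPM in p300 KO and 72.4, 71.5, 77.7 and 72.7 in NTC. Its log2 fold change was 0.27 ± 0.06 (edgeR adjusted p = 0.0181). When scaled by total counts it was 0.09 (edgeR adjusted p = 0.826), where the median over all genes was -0.14, and it was not called without the filter on low counts (0.23, adjusted p = 0.232). Its call was also lost when NTC 1, NTC 2 or NTC 4 was left out, with an adjusted p of at most 0.0663 and a log2 fold change of 0.25 to 0.29 over all leave-outs. SNHG7 (-0.19 ± 0.07, edgeR adjusted p = 0.0894) and SNHG15 (-0.27 ± 0.12, adjusted p = 0.14) had unadjusted p under 0.05. SNHG6, SNHG12, SNHG16, SNHG5 and SNHG8 lay between -0.05 and 0.02, GAS5 was at 0.12 ± 0.08 and SNHG3 at -0.16 ± 0.12.

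Without p300 KO 1, 4 hosts were called, 1 higher and 3 lower, against 40.9% of all genes (19.1% higher and 21.8% lower). SNHG1 was again higher (0.25 ± 0.05, edgeR adjusted p = 1.2e-04). SNHG6 had 316, 335 and 303 CPM against 350, 384, 373 and 372 in NTC (-0.20 ± 0.05, edgeR adjusted p = 8.55e-04). SNHG7, the host of SNORA17A and SNORA17B, had 69.8, 77.6 and 69.7 CPM against 85.3, 82.5, 86.3 and 89.7 (-0.23 ± 0.05, edgeR adjusted p = 3.79e-04). SNHG12 had 41.4, 42.3 and 36.5 CPM against 44.4, 47.8, 47 and 50.1 (-0.23 ± 0.06, edgeR adjusted p = 0.00199). The changes are small, at most a log2 fold change of 0.25 in size. The 4 calls held in each of the 7 fits that left out 1 more library and under scaling by total counts. With the mitochondrial share as a covariate SNHG6 and SNHG7 kept theirs and SNHG1 (0.21, adjusted p = 0.0569) and SNHG12 (-0.19, adjusted p = 0.134) did not. The share was 8.91% to 10.3% in NTC and 10.2% to 11.4% in these p300 KO libraries, so the covariate largely follows the group. A call lost there cannot tell the share from the knockout. GAS5 was at 0.07 ± 0.05, with a 95% interval of -0.03 to 0.18. SNHG6 and SNHG7 share 29.3% and 25.2% of their exonic length with MCMDC2 and DIPK1B on the opposite strand, and the strand setting of the counting is not given in the sources used here. MCMDC2 had -0.70 ± 0.32 and DIPK1B -0.15 ± 0.15 in this fit (edgeR adjusted p = 0.0749 and 0.447).

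**Figure D4:**
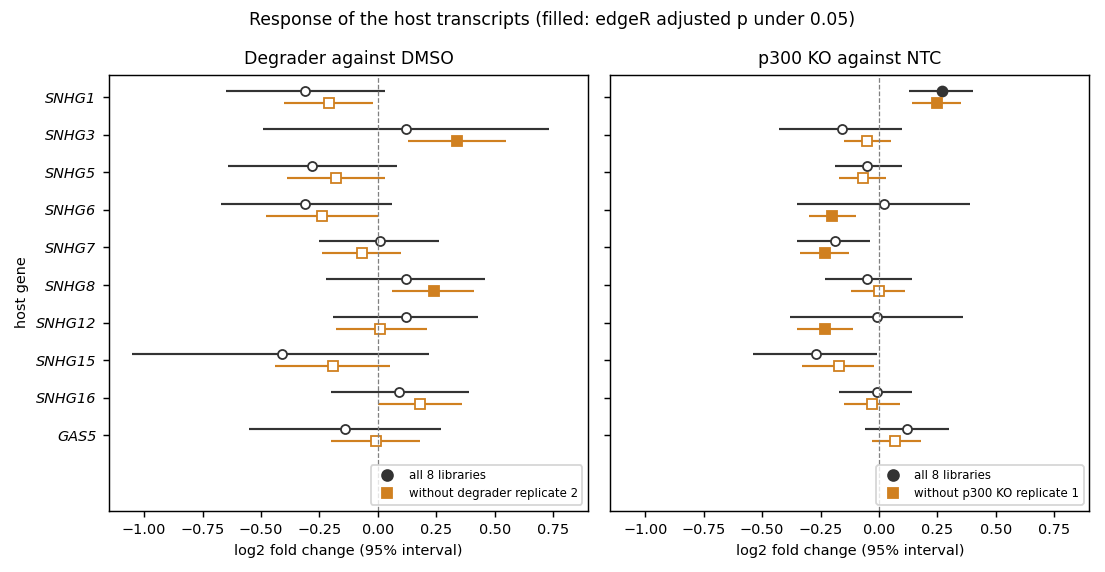
Log2 fold change with 95% interval of each host gene, degrader against DMSO (left) and p300 KO against NTC (right), with all 8 libraries (circles) and without the mitochondria-rich library (squares); filled symbols have an edgeR adjusted p under 0.05. SNHG1 in p300 KO (0.27 and 0.25) is the 1 host called both ways, and the intervals narrow for most genes when the library is left out.

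The difference between the p300 KO effect and the degrader effect was tested over all 16 libraries. None of the 10 hosts was called, against 6.58% of all genes, and SNHG1 alone had an unadjusted p under 0.05 (0.53 ± 0.16, edgeR adjusted p = 0.0687). DESeq2 called 2, SNHG1 (0.50) and SNHG7 (-0.26), and limma-voom called 0. Without both mitochondria-rich libraries SNHG1 had a more positive effect in p300 KO than with the degrader (0.43 ± 0.10, edgeR adjusted p = 0.00274). SNHG3 had a more negative one (-0.42 ± 0.12, edgeR adjusted p = 0.00844). RCC1, which overlaps SNHG3 on the same strand, was at -0.33 ± 0.11 in the same fit (edgeR adjusted p = 0.0209). Its part in the SNHG3 value was not tested. Of all genes 32% were then called, 15.3% more positive and 16.7% more negative. With the mitochondrial share as a covariate in that fit, SNHG1 (0.20, adjusted p = 0.464) and SNHG3 (-0.06, adjusted p = 0.874) were not called. Within each pair the share largely follows the group, so these lost calls cannot tell the share from the effects. The groups differ in the kind and length of p300 loss and in the control, which cannot be told apart.

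Genes related to the hosts were counted from lists. With the degrader and all libraries, where 4.76% of all genes were called, 0 of 20 other noncoding snoRNA hosts were called, with a median log2 fold change of -0.21 beside 0.05 for all genes and -0.07 for the 10 hosts. Of 36 coding snoRNA hosts 1 was higher, NOP56 (0.83 ± 0.14, edgeR adjusted p = 0.016), a core protein of box C/D snoRNPs that also counts among the 11 box C/D genes, and no other of those was called. None of 6 box H/ACA genes, 14 nonsense-mediated decay factors, 77 ribosomal proteins or 19 translation factors with TOP mRNAs was called. Without degrader 2, where 18.2% of all genes were higher and 20.3% lower, 4 of 11 box C/D genes were higher and none lower: NOP56 (0.73), RUVBL1 (0.64), ZNHIT3 (0.23) and RPAP3 (0.23). Of the other noncoding hosts 1 was then higher, SNHG29 (0.33), and 4 lower, among them SNHG22 (-1.12), SNHG19 (-0.49) and SNHG17 (-0.32). Of the 14 decay factors 3 were higher and 4 lower, with RBM8A (0.53), an exon junction protein, and SMG6 (-0.66), the endonuclease of the pathway, among them. Of the ribosomal proteins 14 were higher and 2 lower, of the coding hosts 11 and 2, of the translation factors 2 and 1, and of the box H/ACA genes 2 and 0. The counts of noncoding hosts lower and ribosomal proteins higher are near the shares of all genes.

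In p300 KO with all libraries, where 17% of all genes were called, 4 of 20 other noncoding hosts were lower and none higher: SNHG10 (-0.86 ± 0.11), SNHG26 (-0.84 ± 0.10), DANCR (-0.65 ± 0.08) and SNHG11 (-0.51 ± 0.14), with edgeR adjusted p of 0.00108, 0.00108, 0.00113 and 0.0341. Their median was -0.16, beside 0.02 for all genes and -0.03 for the 10 hosts. RUVBL1 (-0.47), an ATPase of snoRNP assembly, was the 1 of 11 box C/D genes called. The box H/ACA assembly factor NAF1 (-0.40) and the core protein GAR1 (-0.28) were 2 of 6 called, both lower. EIF4A3 (-0.58), a core protein of the exon junction complex, was lower and its partner CASC3 (0.28) higher, and the other 12 decay factors were not called. Of 36 coding hosts CCT6A (-0.23) and NCL (-0.22) were lower, of 19 translation factors HNRNPA1 (-0.28), and of 77 ribosomal proteins none was called, with 2 at an unadjusted p under 0.05. Without p300 KO 1, where 19.1% of all genes were higher and 21.8% lower, 9 of 20 other noncoding hosts were lower and 1 higher, 5 of 11 box C/D genes and 4 of 6 box H/ACA genes were lower and none higher, and the decay factors split 4 and 4. The box H/ACA pseudouridine synthase DKC1 was then at -0.38 ± 0.05 and NOP56 at -0.30 ± 0.05. The coding hosts had 3 higher and 7 lower, the translation factors 0 and 4, and the ribosomal proteins 0 and 5.

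Leaving out the hosts themselves, the genes whose profile over the 14 other libraries was most like the mean of the 10 hosts were TEDC1, PSMG3 and TIMM8B. Likeness was the root mean square difference of centred log2 CPM, which was 0.0637, 0.0685 and 0.0751 for these and had a median of 0.634 over 9048 genes. The mean host profile was 0.62 in DMSO, 0.62 with the degrader, -0.59 in NTC and -0.67 in p300 KO. Likeness is therefore mostly that of the step between the first and the second pair of groups, and shared regulation was not tested. Among the hosts SNHG7 was nearest to their own mean, at 0.0703, and SNHG8, with the smallest ratio between the controls, was farthest, at 0.325.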

How the data were processed

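RNA of NCI-H929 cells was extracted with QIAsymphony and made into libraries with the NEBNext Ultra II RNA kit, per the labels' protocols. The submitters' processing notes name Trimmomatic 0.36, STAR 2.5.2b, featureCounts of Subread 1.5.2, DESeq2 1.16.1 and GRCh38. Each deposited file holds raw read counts of 57500 genes with their exon positions, per the file headers. The strand setting, the treatment of reads that match several genes or places, and the annotation release are in none of the labels or headers. How reads in overlapping genes were assigned is therefore not known.

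Symbols came from the gene name table and GENCODE 29 (40907 identifiers with a symbol). The 10 genes and all lists were chosen with earlier results of these data known, and the motifs and pyrimidine runs after the sequences had been looked at. Counts were fitted with edgeR 4.0.16 (R 4.3.3) by the quasi-likelihood test with TMM scaling and filterByExpr, each comparison on its own 8 libraries and the difference of effects on 16, with Benjamini-Hochberg adjustment over all genes tested and a threshold of 0.05. Printed CPM values are TMM-scaled over 16 libraries. Alternatives were RLE and total count scaling, mitochondrial genes removed, no filter, DESeq2 1.42.0, limma-voom (limma 3.58.1), a replicate block, the mitochondrial share as covariate, other sets of libraries, and each library left out. They made 17, 17 and 25 other fits for the 3 comparisons. Further fits without the mitochondria-rich libraries were chosen after seeing the data. From lists other than the 10 hosts, up to 4 genes with the smallest p were named per list and comparison. No library pair was identical (chi-square per degree of freedom 2.74 to 818). The fits were tested on simulated counts.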

Additional observations from a re-analysis of the deposited data

Results flagged for a closer look

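In degrader library 2, SNHG1 (174 CPM), SNHG3 (125 CPM), SNHG8 (68.9 CPM), SNHG15 (15.8 CPM) and SNHG16 (89.5 CPM) lay far below the other 3 libraries of the group, and SNHG7 (215 CPM) lay far above them, by Dixon's test for a single outlying value. In p300 KO library 1 the same held for SNHG3 (76.7 CPM, low). These are 7 of 40 groups of 4 libraries tested, and chance marks about 1 in 20. The libraries are those with 64.9% and 47.7% mitochondrial counts, and the part of that share in these values was not tested.

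The effect of p300 KO differed from that of the degrader for SNHG1 (0.43 on the log2 scale, edgeR adjusted p = 0.00274) and for SNHG3 (-0.42, edgeR adjusted p = 0.00844) when both mitochondria-rich libraries were left out. In that fit 32% of all genes were called. With the mitochondrial share as a covariate in it, neither SNHG1 nor SNHG3 was called, and the share there largely follows the group. With all 16 libraries neither passed the test (edgeR adjusted p = 0.0687 and 0.633).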

How the results depend on the processing

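Over all genes, the degrader comparison called 755 genes, and 164 under total count scaling, 394 without the filter, 1796 with DESeq2, 5785 with the mitochondrial share as covariate, 2294 in the 16-library fit and 197 to 6278 with 1 library left out. Its hosts called were 0, 4 with the covariate, and 0 to 2 with 1 library left out. SNHG7, at 0.01, changed sign under total count scaling (-0.16), the covariate (-0.01), the 16-library fit (-0.01) and leave-outs (-0.07 to 0.05), and SNHG12, at 0.12, under total count scaling (-0.06).

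The p300 KO comparison called 2944 genes, and 1265 under total count scaling, 7067 with the covariate, 1484 in the 16-library fit and 1542 to 7246 with 1 library left out. Its hosts called were 1, 0 under total count scaling, without the filter and in the 16-library fit (SNHG1 at 0.21, adjusted p = 0.307), 2 with DESeq2, 4 with the covariate, and 0 to 4 with 1 library left out. SNHG6, at 0.02, was -0.22 under total count scaling, -0.04 without the filter, -0.02 with limma-voom, -0.22 with the covariate (called, adjusted p = 2.04e-04), -0.05 in the 16-library fit and -0.20 to 0.10 in leave-outs. GAS5 was -0.07 under total count scaling and SNHG8 0.01 with the covariate. Leave-outs gave -0.23 to 0.09 for SNHG12 and -0.05 to 0.02 for SNHG16.

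The difference of effects called 1189 genes, and 319 under total count scaling, 585 without the filter, 2095 with DESeq2, 4547 with the covariate, 5901 without both mitochondria-rich libraries and 766 to 4611 with 1 left out. Its hosts called were 0, 2 with DESeq2, 2 with the covariate, 2 without both libraries and 0 to 2 with 1 left out. SNHG15, at 0.09, was -0.01 without both and -0.13 to 0.22 in leave-outs.

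Without the mitochondria-rich libraries, in fits chosen after seeing the data, the degrader comparison called 2 hosts, 0 with the covariate and 1 to 5 with 1 more library left out. The p300 KO comparison called 4, 2 with the covariate and 4 to 5 in leave-outs. The difference called 2, then 4 with RLE scaling, 6 under total count scaling, 6 with DESeq2 and 2 to 5 in leave-outs. Where the mitochondria-rich libraries or the covariate moved a value, the cause was not tested. Total count scaling moved the median over all genes by -0.14 for the degrader and -0.16 for p300 KO with all libraries, and by 0.11 for the degrader without degrader 2, where 63.1% of calls were higher, against 47.3%. For the difference without both libraries that share was 34.9%, against 47.9%.

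Same-numbered libraries had correlations of -0.436 to 0.129. These included the mitochondria-rich libraries, so they do not settle whether replicate numbers pair the libraries. With a replicate block the comparisons called 24, 1304 and 715 genes and 0 hosts, and in p300 KO SNHG1 was 0.27 (adjusted p = 0.0858) and SNHG6 -0.02. SNHG15 had as few as 85 counts in degrader 2, which limits its precision.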
